A study of Danio rerio with 4 samples.

Results

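The regions described here were bound, by the authors' peak lists, by the transcription factor Sox2 and by Flag-tagged Pou5f1 in zebrafish embryos at late blastula, and carried no Pou5f1-Flag interval at the 512-cell stage. They were found by taking the intervals of the Sox2, late blastula Pou5f1-Flag and 512-cell Pou5f1-Flag lists that overlap no Input interval by 1 bp, merging intervals that overlap over the 3 lists into loci, and keeping loci with a Sox2 and a late blastula Pou5f1-Flag interval and without a 512-cell interval. Of 16960 loci of any list, 1274 (7.51%) met the rule. They were 77.3% of the 1648 loci with both late blastula factors (exact 95% interval 75.2 to 79.3). The other 374 loci held intervals of all 3 lists and are used for comparison. Absence was more frequent at loci of 1 late blastula factor. With Sox2 and no late blastula Pou5f1-Flag, 4089 loci lacked a 512-cell interval and 177 held one. With late blastula Pou5f1-Flag and no Sox2, these were 4036 and 390. The 1274 loci were thus chosen by measured values, the presence and absence of intervals in the 3 lists, and neither is a finding. "Without a 512-cell interval" means absent from that list: no read counts of the 512-cell sample at these positions were analysed here.

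Chromatin immunoprecipitation with sequencing was carried out on 4 samples of zebrafish embryos, each from pooled nuclei fixed with 1% paraformaldehyde, with 1 sample in each group and no replicate. Sox2 was precipitated with an anti-Sox2 antibody from wildtype late blastula embryos, and tagged Pou5f1 with an anti-FLAG M2 antibody from MZspg embryos at late blastula and at the 512-cell stage. MZspg embryos, maternal-zygotic mutants for spg (spiel ohne grenzen), lack working Pou5f1 and had been injected with Pou5f1-Flag mRNA, so this factor came from injected message and not from the embryo's own gene. For the late blastula sample the labels put the injected amount at the least that rescues the mutant. Input chromatin came from wildtype late blastula embryos, and Input of injected or of 512-cell embryos was not analysed here. The late blastula samples were made from 20000000 nuclei each and the 512-cell sample from 2000000, and Pou5f1 was run in technical duplicates for more depth, with no stage named. Stage and amount of chromatin differ together between the late blastula lists and the 512-cell list and cannot be told apart. Between the Sox2 list and the Pou5f1-Flag lists, genotype, antibody and mRNA injection differ together and cannot be told apart either. Sequencing run may differ too and was not analysed here.

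Pou5f1 (gene symbol now pou5f3) is the zebrafish relative of mammalian Oct4, and Sox2 belongs to the SoxB1 family of HMG-box factors. The mammalian proteins bind side by side on composite sites of pluripotency enhancers. In zebrafish, maternal Pou5f1, SoxB1 factors and Nanog take part in switching on the embryo's own genome, which begins around the midblastula transition, and in restricting when patterning genes are expressed. The 512-cell stage lies just before that transition and late blastula after it. The 2 Pou5f1-Flag lists allow the listed positions to be compared, and between these lists stage differs together with the amount of chromatin.

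The Sox2, late blastula Pou5f1-Flag, 512-cell Pou5f1-Flag and Input lists held 6129, 7130, 7747 and 1901 intervals, of which 205, 460 and 174 of the 3 ChIP lists overlapped an Input interval. Library depths are unknown: the reads inside intervals summed to 742542, 841679, 564835 and 966327 in the same order. An Input-free interval had at least 8 reads in both late blastula ChIP lists and at least 23 in the 512-cell list. All reads, false discovery rates and p-values per interval are the authors'. With 1 sample a group no test was made, and every interval given here is an exact binomial 95% interval, or its counterpart for a median, that covers counting over loci or genes only.

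Positions are given in the Zv9 build, counted from 1, with the pair of flanking genes that the lists name. Whether a position is exonic, intronic or in a UTR was not analysed here. The strongest of these loci for Sox2 lay between b3gnt2b and otx1, a homeobox gene of the forebrain and midbrain, on chromosome 17 from 24111505 to 24112590. It had 955 Sox2 reads and 163 late blastula Pou5f1-Flag reads, and the nearest 512-cell interval was 33.3 kb away. The next was at tle3a, which encodes a Groucho-type corepressor, and kif23 (876 and 108 reads, chromosome 18, 20053366 to 20054198). It was followed by the locus at vps13a and tcf7l1b, a Tcf repressor of Wnt targets (785 and 167 reads, chromosome 8, 54433430 to 54434110), whose nearest 512-cell interval was 341 kb away. The locus between suz12a, a Polycomb complex gene, and rab11fip4a had 769 Sox2 and 178 Pou5f1-Flag reads (chromosome 3, 40422703 to 40423403). At lbh and vox, a homeobox repressor of dorsal fate, there were 740 Sox2 and 68 Pou5f1-Flag reads (chromosome 13, 54041738 to 54042356). The nearest 512-cell intervals to the tle3a, suz12a and vox loci were 47.5, 4.66 and 3.03 kb away. The median of Pou5f1-Flag reads over the loci without a 512-cell interval was 48. Loci of all 3 lists also lay beside vox (5), suz12a (6) and tle3a (3), and none beside otx1 or tcf7l1b.

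Ranked by the worse of their 2 ranks, the loci strong in both lists began with alcamb, a cell adhesion gene, and thap12b (608 Sox2 and 195 late blastula Pou5f1-Flag reads, chromosome 15, 18803636 to 18804827), followed by the suz12a, tcf7l1b and otx1 loci. Next was the first of a pair of loci at NM_001048055 and rnasel3 on chromosome 14, with 489 and 162 reads (38824688 to 38825305). The second, 474 and 142 reads, lay at 38911060 to 38911911. The locus of pcp4a and rps25 had 500 Sox2 and 150 Pou5f1-Flag reads (chromosome 10, 40417760 to 40418607). That of rab40c and xylt1 had 438 and 188 reads (chromosome 3, 26459547 to 26460272) and lay 223 bp from a 512-cell interval. The locus of shcbp1 and shha, a Hedgehog ligand gene, had 397 and 200 reads (chromosome 7, 43054058 to 43054812). Also among the 12 best were pus1 and sfswap (479 and 145 reads, chromosome 21, 13070421 to 13070970) and otud5a and pim2, a serine/threonine kinase gene (399 and 148 reads, chromosome 8, 9452278 to 9453132).

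The 2 loci strongest for late blastula Pou5f1-Flag had few Sox2 reads, and the next 3 had more than the median of 99. At klf2a, a Krüppel-like factor gene, and stil, 856 Pou5f1-Flag reads fell in an interval of 1909 bp beside 44 Sox2 reads, and the centres of the 2 intervals were 846 bp apart (chromosome 22, 16044999 to 16046943). At NM_001114479 and egfl7, an endothelial secreted protein gene, 597 Pou5f1-Flag reads stood beside 28 Sox2 reads (chromosome 11, 38100534 to 38101038). The locus between dhh, another Hedgehog ligand gene, and acvr1ba, an activin and Nodal receptor gene, had 265 Pou5f1-Flag and 132 Sox2 reads (chromosome 23, 28056839 to 28057395). That of cdkn2aip and ccnd1, which encodes cyclin D1, was high for both, with 299 Sox2 and 247 Pou5f1-Flag reads (chromosome 7, 54543456 to 54544206), as was that of grk3 and NM_199957 with 192 and 229 (chromosome 10, 46108011 to 46108575). Over all 1274 loci, Sox2 reads exceeded Pou5f1-Flag reads at 1097 (86.1%), were at least 5 times as many at 107 (8.40%) and were fewer by at least 5 times at 2, those of klf2a and egfl7. The libraries were not scaled to each other, so the ratio orders loci and does not compare occupancy of the 2 factors.

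Its median was 1.98, from 0.0469 at egfl7 to 15.4 at macrod2 and tasp1 (385 Sox2 and 25 Pou5f1-Flag reads, chromosome 13, 34049433 to 34050107). Other loci with a high ratio lay at NM_212997 and hebp2 (402 and 27 reads, ratio 14.9, chromosome 20, 30849793 to 30850464) and at sumf1 and pfkfb4b (676 and 53 reads, ratio 12.8, chromosome 6, 39925829 to 39926528). The third lowest ratio, 0.218, was that of wdr54 and rhobtb4 (22 and 101 reads, chromosome 5, 44835461 to 44836116). With every list held to a false discovery rate of at most 1%, the loci of egfl7, macrod2 and rhobtb4 were no longer among the chosen. Those of hebp2 and pfkfb4b remained. Across the 1274 loci the Spearman correlation of Sox2 with Pou5f1-Flag reads was 0.437, and it was 0.519 across the 374 loci of all 3 lists. Across the 1274 loci reads also followed interval length in each list, with a correlation of 0.938 for Sox2 and 0.927 for late blastula Pou5f1-Flag.

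**Figure D1:**
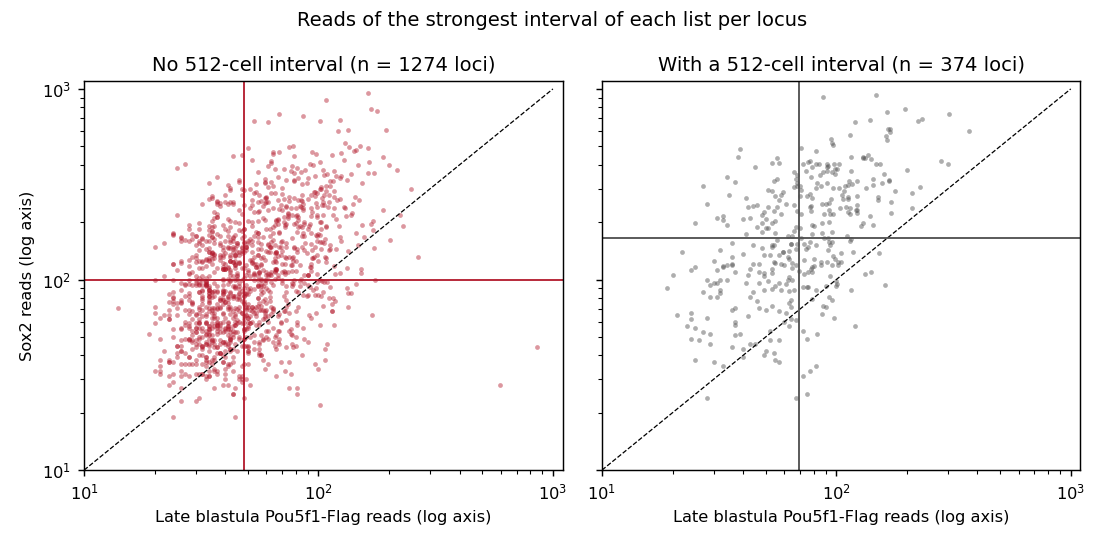
Each point is a locus, with late blastula Pou5f1-Flag reads across and Sox2 reads up, both on log axes; the dashed line marks equal reads and solid lines the medians. Loci without a 512-cell interval (left) have medians of 99 Sox2 and 48 Pou5f1-Flag reads, and loci of all 3 lists (right) 164.5 and 69.5.

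The loci without a 512-cell interval had fewer reads of both factors at late blastula than the loci in all 3 lists. Their Sox2 reads had a median of 99 (94 to 105), with quartiles of 60 and 167 and a range of 19 to 955. In loci of all 3 lists the median was 164.5 (145 to 192), with quartiles of 96.5 and 291.75 and a range of 24 to 924. The ranges therefore overlap almost whole. The medians differ, with intervals that cover counting over loci only. A longer interval, which has more reads, can more readily overlap a 512-cell interval. The part of interval length in this difference was not tested. Late blastula Pou5f1-Flag reads had a median of 48 (47 to 50) and a range of 14 to 856 in the loci without a 512-cell interval, and a median of 69.5 (65 to 75) and a range of 19 to 368 in loci of all 3 lists. Loci with Sox2 alone were lower again, with a median of 52 Sox2 reads (51 to 54), and those with late blastula Pou5f1-Flag alone had a median of 35 (35 to 36). The other loci of 2 lists also lay between those of 1 list and those of all 3, with a median of 73 Sox2 reads for Sox2 with 512-cell Pou5f1-Flag (62 to 79) and of 44 late blastula reads for both Pou5f1-Flag lists (41 to 48).

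The same order held per length and in the authors' quality measures. These measures are not independent of the read counts, so they add no separate support. Sox2 reads per 100 bp had a median of 23.8 at loci without a 512-cell interval, 33.8 at loci of all 3 lists and 16.7 at loci of Sox2 alone, and for late blastula Pou5f1-Flag 15.2, 17.7 and, with that factor alone, 12.7. Sox2 intervals had a median length of 414 bp in the loci without a 512-cell interval and 484.5 bp in those of all 3 lists, and Pou5f1-Flag intervals 312 and 393.5 bp. The strand imbalance of an interval, which is the excess of reads on the fuller strand divided by all its reads, had a median of 0.0818 against 0.0719 for Sox2 and of 0.111 against 0.0920 for Pou5f1-Flag, and of 0.114 and 0.143 at loci of Sox2 alone and Pou5f1-Flag alone. A false discovery rate of at most 1% was listed for the Pou5f1-Flag interval of 901 loci without a 512-cell interval (70.7%) and of 318 loci of all 3 lists (85.0%), and for the Sox2 interval of 1182 (92.8%) and 364 (97.3%).

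Absence from the 512-cell list was less frequent at stronger loci. When the 1648 loci with both late blastula factors were put into 10 groups by Sox2 reads, the share without a 512-cell interval was 89.6% (83.9 to 93.8) in the weakest group of 19 to 45 reads. It was 78.8% in the fifth group, 73.3% in the eighth and 62.4% in the ninth. In the strongest group, of 316 to 955 reads, 88 of 165 loci lacked a 512-cell interval (53.3%, 45.4 to 61.1). By late blastula Pou5f1-Flag reads the share was 83.5% in the weakest group, 89.7% in the third and 57.6% in the strongest, of 111 to 856 reads (95 of 165, 49.7 to 65.2). Among the 67 loci in the strongest group for both factors, 32 lacked a 512-cell interval (47.8%, 35.4 to 60.3), among them the otx1, tcf7l1b, suz12a and alcamb loci. For both factors the strongest group had the lowest share, and it still held 88 or 95 loci absent from the 512-cell list. The lowest read count was higher and the amount of chromatin smaller for the 512-cell list than for the late blastula lists, and their part in this was not tested. The part of interval length, which rises with reads, was not tested either.

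**Figure D2:**
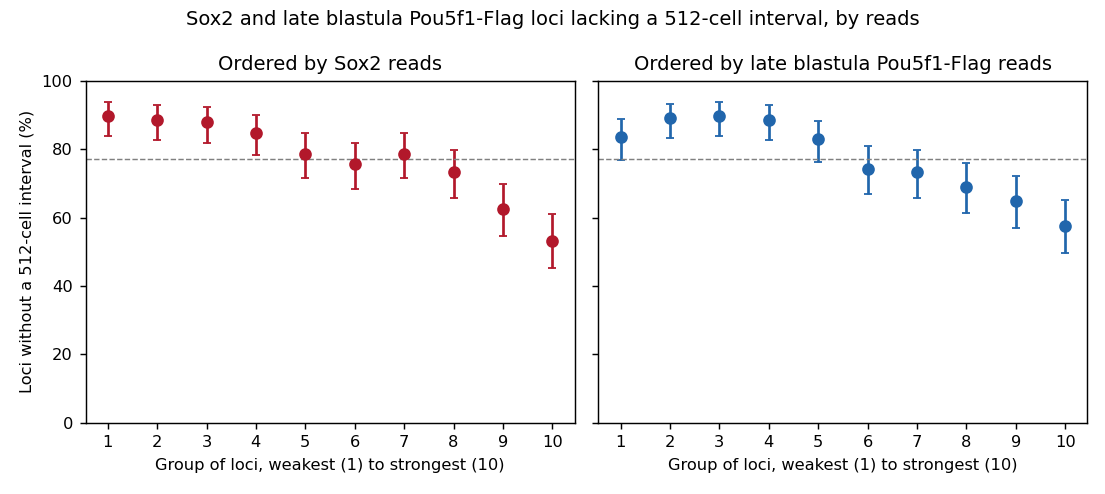
Percent of Sox2 and late blastula Pou5f1-Flag loci without a 512-cell interval (vertical axis) in 10 groups from the weakest to the strongest by reads, with exact 95% intervals over loci as bars; the dashed line is 77.3%, the share of all 1648. The share is 89.6% in the weakest and 53.3% in the strongest group by Sox2 reads, and 83.5% and 57.6% by Pou5f1-Flag reads.

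Within a locus the 2 factors lay close together. The centres of the strongest Sox2 and Pou5f1-Flag intervals were a median of 36.5 bp apart (34 to 38.5), with quartiles of 15.5 and 69.5 bp, in the loci without a 512-cell interval, and 32 bp apart (27.5 to 35) in loci of all 3 lists. Centres within 50 bp were found at 799 loci without a 512-cell interval (62.7%, 60.0 to 65.4) and at 261 of all 3 lists (69.8%, 64.9 to 74.4), and within 100 bp at 1093 (85.8%) and 338 (90.4%). The rule asks only for an overlap of 1 bp, and intervals of these lengths that overlap cannot have distant centres, so the distances are bounded by the choice. The largest, 882 bp, belonged to a locus without a 512-cell interval. Distances over 200 bp were found at 37 such loci (2.90%), including that of klf2a, and at 12 of all 3 lists (3.21%, 1.67 to 5.54). The centre of the Sox2 interval lay inside the Pou5f1-Flag interval at 1205 of the 1274 loci (94.6%), and the Sox2 interval was the longer of the 2 at 1000 (78.5%). In loci of all 3 lists these shares were 95.5% and 79.4%.

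In its deposited order the late Pou5f1-Flag list covers the genome in 2 passes, of 1217 and 5913 intervals, and no source used here says whether they stand for the technical duplicates. At 265 loci without a 512-cell interval (20.8%, 18.6 to 23.1) intervals of both passes were merged, against 136 loci of all 3 lists (36.4%, 31.5 to 41.5) and 140 with late blastula Pou5f1-Flag alone (3.47%). The loci of otx1, suz12a, alcamb, acvr1ba and ccnd1 remained among the chosen when the first pass alone was used, while those of tcf7l1b, tle3a, vox, shha and klf2a did not. Most of the 1274 loci, 957 (75.1%), had intervals of the second pass only.

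The smallest overlaps of a Sox2 and a Pou5f1-Flag interval that counted were 6 bp at arcn1b and zgc:113279 (82 and 34 reads) and 8 bp at robo3 and tmem218 (66 and 33 reads), and the nearest Sox2 locus left out lay 5 bp from a Pou5f1-Flag locus, at dtx2 and lig3 (27 Sox2 reads). The kept loci nearest to a 512-cell interval were 23 bp from it at coq10b and hspd1 (208 and 41 reads, chromosome 9, 33213089 to 33213566), 44 bp at sp5l, a Wnt target gene (142 and 87 reads, chromosome 23, 28272908 to 28273377), and 65 bp at foxa2, a forkhead gene of endoderm and axial mesoderm (70 and 37 reads, chromosome 17, 42397821 to 42398173). The smallest overlap that put a locus among those of all 3 lists was 5 bp, at lancl2 and napga, with 46 Sox2, 29 late blastula and 45 512-cell reads.

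Many of the loci had a 512-cell interval nearby though not at the same place. Of the 1273 on a chromosome with 512-cell intervals, 42 (3.30%) lay within 1 kb of one, 294 (23.1%, 20.8 to 25.5) within 10 kb and 713 (56.0%, 53.2 to 58.8) within 50 kb, with a median gap of 39.7 kb and a largest of 2401 kb. For loci of Sox2 alone, 683 of 4089 (16.7%, 15.6 to 17.9) lay within 10 kb and the median gap was 51.3 kb, and for late blastula Pou5f1-Flag alone these were 19.5% (18.2 to 20.7) and 53.9 kb. The share within 10 kb was thus higher for loci of both factors than for those of either factor alone. The counting intervals treat neighbouring loci as independent and may be too narrow to weigh this difference. At 50 kb the shares were 49.4% (47.8 to 50.9) for Sox2 alone and 48.3% (46.8 to 49.9) for late blastula Pou5f1-Flag alone. Within 1 kb late blastula Pou5f1-Flag alone had the higher share, 5.50% against 3.30%. The 560 loci over 50 kb away had medians of 90.5 Sox2 and 46 Pou5f1-Flag reads, and the 713 nearer ones 107 and 50. All gaps use the whole 512-cell list. Its 6620 loci found in no other list had a median false discovery rate of 1.99%, with quartiles of 1.35% and 2.47%. For the 512-cell interval of the 374 loci of all 3 lists the median was 0.981%.

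**Figure D3:**
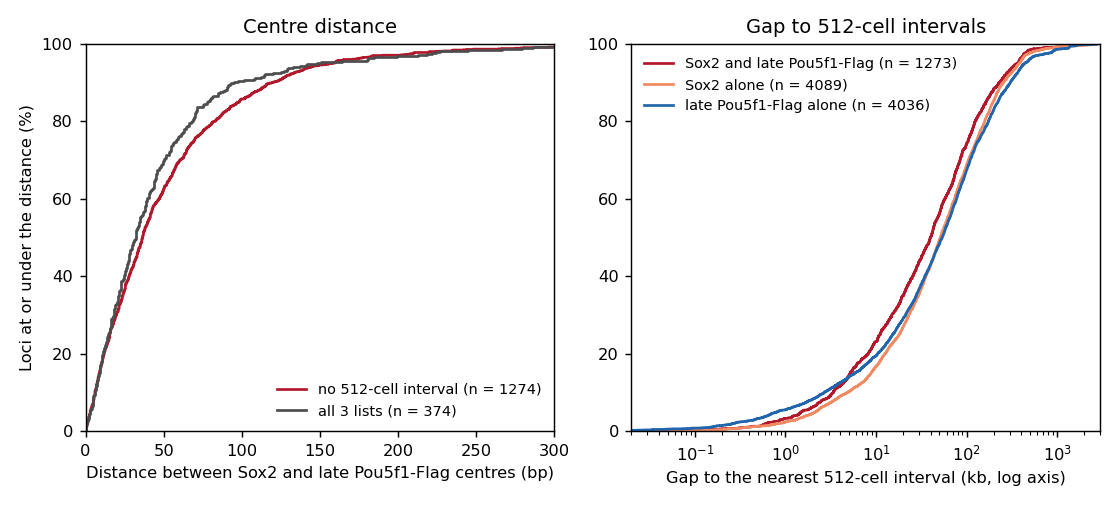
Left: percent of loci whose Sox2 and late blastula Pou5f1-Flag centres lie at or under a distance in bp, for loci without a 512-cell interval and of all 3 lists, with medians of 36.5 and 32 bp. Right: percent of loci at or under a gap in kb (log axis) to the nearest 512-cell interval, with medians of 39.7 kb for both late blastula factors, 51.3 kb for Sox2 alone and 53.9 kb for late blastula Pou5f1-Flag alone.

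The loci were spread over all chromosomes, from 30 on chromosome 12 to 88 on chromosome 7. Their share among loci with both late blastula factors ran from 68.6% on chromosome 13 to 85.5% on chromosome 4. One more lay on the mitochondrial chromosome, at positions 1 to 630, with 181 Sox2 and 170 Pou5f1-Flag reads and an Input interval 214 bp away; it was picked out after its values were seen, and the 512-cell list held no interval on that chromosome. Within 10 kb of an Input interval lay 27 of the 1274 loci (2.12%) and 7 of the loci of all 3 lists (1.87%), against 2.37% of loci of Sox2 alone and 5.53% of late blastula Pou5f1-Flag alone. All 7 loci between hpdb and pbx3b on chromosome 8, with 38 to 97 Sox2 and 31 to 107 Pou5f1-Flag reads, were among the 27.

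Of the 9679 genes named beside any interval of the 4 lists, 1710 (17.7%) flanked a locus without a 512-cell interval, and 621 (6.42%) flanked a locus of all 3 lists. Of the 6890 genes beside an Input-free Sox2 or late blastula Pou5f1-Flag interval, the 1710 made 24.8%. Most of them, 1216, flanked 1 such locus, 311 flanked 2 and 111 flanked 3. The lists name the nearest annotated gene on each side at any distance: met and zgc:113984 flanked 17 loci over 12561 kb of chromosome 25, and suz12a and rab11fip4a 12 loci over 7757.8 kb of chromosome 3, so a high count for such genes follows from the stretch. Names are therefore those of neighbours and say nothing of which gene a locus acts on. The groups below were chosen with earlier results of these data known, and no test was made on them.

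Genes of embryonic patterning stood above this background, and the part played by the length of their flanks was not tested. Over the 9 patterning lists, 164 of 422 named genes flanked a locus without a 512-cell interval (38.9%, 34.2 to 43.7, against 17.7% of all genes) and 91 a locus of all 3 lists (21.6%, against 6.42%). With the first pass of the late Pou5f1-Flag list alone the share was 13.7%, against 5.66% of all genes. Of the 164, 107 flanked no locus of all 3 lists (65.2%), as did 1432 of all 1710 genes beside a locus without a 512-cell interval (83.7%, 81.9 to 85.5). By the names each list gives, 25 of the 164 (15.2%) were named beside no Input-free 512-cell interval, against 498 of the 1710 (29.1%, 27.0 to 31.3). These counts can overstate absence, because the lists can name different flanking genes at the same place. Thus fgfr1b was among the 25 yet flanked 1 locus of all 3 lists. The Sox2 and the 512-cell interval named a gene in common at 357 of the 374 loci of all 3 lists (95.5%). The 3 comparison lists held 22 of 142 genes (15.5%, 10.0 to 22.5), with 5 beside a locus of all 3 lists (3.52%). Counted by loci, 278 of the 1274 (21.8%, 19.6 to 24.2) lay beside a patterning gene, against 117 of the 374 of all 3 lists (31.3%, 26.6 to 36.3), 17.5% of loci of Sox2 alone and 11.5% of late blastula Pou5f1-Flag alone. The 278 were stronger, with medians of 125 Sox2 and 56.5 Pou5f1-Flag reads, than the 28 beside genes of the comparison lists, with 73 and 39. The 47 loci beside adhesion and guidance genes, which are not a patterning list, had like medians of 124 and 54.

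**Figure D4:**
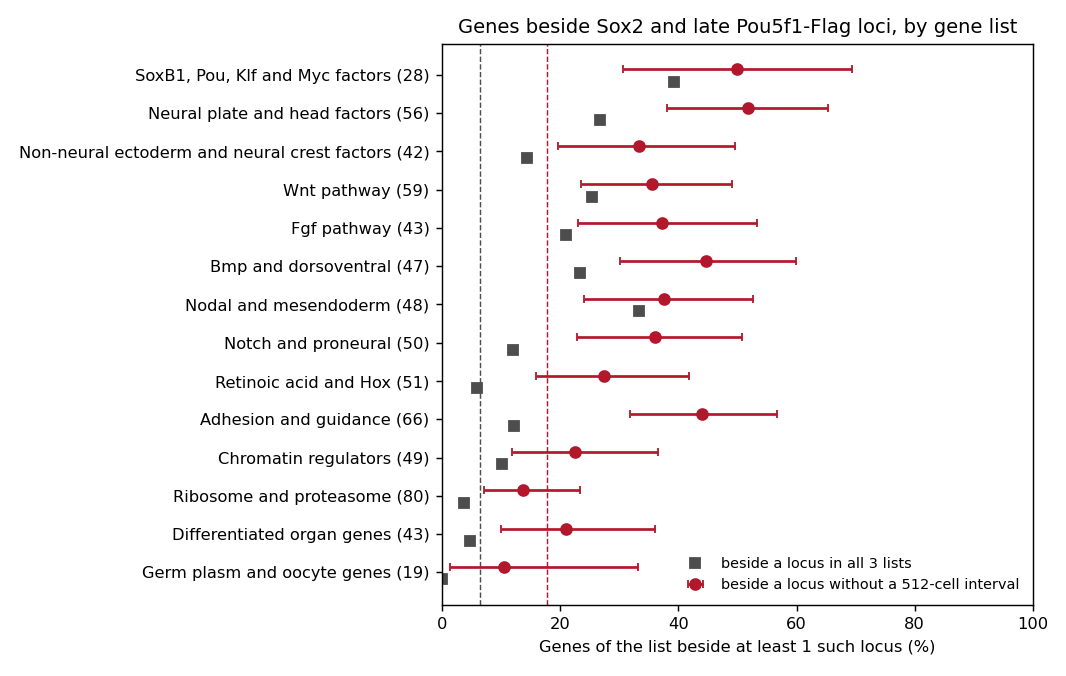
Percent of each list's named genes (number in brackets) beside at least 1 locus without a 512-cell interval (circles, with exact 95% intervals over genes) and beside a locus of all 3 lists (squares); dashed lines give the shares of all named genes, 17.7% and 6.42%. Neural plate and head factors reach 51.8% for loci without a 512-cell interval, and germ plasm and oocyte genes 10.5%.

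The regulators themselves were among the genes. In the list of SoxB1, Pou, Klf and Myc factors 14 of 28 genes (50.0%, 30.6 to 69.4) flanked a locus without a 512-cell interval, and 11 a locus of all 3 lists. pou5f3, the gene of Pou5f1 itself, flanked 3, the strongest with 254 Sox2 and 105 Pou5f1-Flag reads (chromosome 21, 11898378 to 11898888) and its centres 3 bp apart. sox19b, the main maternally supplied SoxB1 gene, flanked 4, led by 1 with 205 and 82 reads (chromosome 7, 27629776 to 27630316), all over 50 kb from any 512-cell interval. sall4, a zinc finger gene of the pluripotency network in mouse, flanked 5, of which the strongest had 322 and 34 reads (chromosome 23, 39072947 to 39073493). That locus lay 0.714 kb from a 512-cell interval. sox2, sox3, nanog and klf2a flanked 1 each. Of the loci of all 3 lists, sox2, sox3 and nanog flanked 2 each, sall4 3 and pou5f3 1, while sox19b and klf2a flanked none.

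Neural plate and head factors had the highest share, 29 of 56 genes (51.8%, 38.0 to 65.3). No locus of all 3 lists lay beside 20 of the 29 (69.0%, against 83.7% of all genes beside a locus without a 512-cell interval). zic2a, a zinc finger gene of the neural plate, flanked 4 loci, the strongest with 468 Sox2 and 68 Pou5f1-Flag reads (chromosome 9, 32351171 to 32352191). The Iroquois homeobox genes irx1b and irx1a flanked 3 and 5, led by 426 and 52 reads at irx1b (chromosome 19, 28625396 to 28626081) and by 165 and 32 reads at irx1a (chromosome 16, 938271 to 938719). otx1 flanked 3, with 106, 196 and 955 Sox2 reads. Besides them, fezf2 and emx2, forebrain factors, flanked 3 each, and six3a, six3b, pax2a, gbx1 and en2a 1 each. Among non-neural ectoderm and neural crest factors the count was 14 of 42 (33.3%, 19.6 to 49.5). Most loci, 3 each, lay beside sox11a (strongest 238 and 93 reads, chromosome 17, 36042598 to 36043214), sox11b (215 and 131 reads, chromosome 20, 30131628 to 30132339) and eya1, a placode gene (112 and 58 reads, chromosome 24, 13912827 to 13913283). Most Sox2 reads were at msx1a, a homeobox gene of the neural plate border, with 444 and 43 reads at its 1 locus (chromosome 14, 167278 to 167893).

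In the Wnt pathway 21 of 59 genes (35.6%, 23.6 to 49.1) flanked a locus without a 512-cell interval. Among them were genes of repressors, nuclear effectors, receptors and a ligand, wnt5b. tcf7l1a, like its paralog tcf7l1b a Tcf repressor, flanked 3 loci with up to 671 Sox2 and 61 Pou5f1-Flag reads at the same locus (chromosome 10, 43618950 to 43619645). tle3a flanked 5 and amotl2a, an angiomotin-like gene, 4. fzd7a, a Frizzled receptor gene, flanked 3, all over 50 kb from a 512-cell interval, and the strongest had 416 and 101 reads (chromosome 9, 13756768 to 13757377). At tcf7l2 405 and 92 reads were listed (chromosome 12, 33085449 to 33086057). axin2, a feedback inhibitor of the pathway, flanked 3 and ctnnb1, the gene of beta-catenin, 1.

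In the Fgf pathway it was 16 of 43 genes (37.2%, 23.0 to 53.3). Of their 24 loci, 14 lay over 50 kb from a 512-cell interval (58.3%, 36.6 to 77.9), an interval that includes the 44.0% of all loci. The feedback inhibitor gene spry2 flanked 3, the strongest with 276 Sox2 and 85 Pou5f1-Flag reads and 381 kb from the nearest 512-cell interval (chromosome 1, 4176273 to 4176815). dusp6, which encodes an ERK phosphatase, had 284 and 63 reads (chromosome 25, 18794151 to 18794909) and the Ets factor gene etv5a 418 and 63 (chromosome 9, 23594679 to 23595305). The dusp6 and etv5a loci lay 1.47 and 67.9 kb from a 512-cell interval. The ligand gene fgf17 had 217 and 115 reads (chromosome 8, 54966071 to 54966573) and the receptor gene fgfr1a 267 and 35 (chromosome 8, 53767633 to 53768150). Ligands, receptors, Ets effectors and inhibitors were thus all present among the 16.

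Bmp and dorsoventral genes counted 21 of 47 (44.7%, 30.2 to 59.9). id1, a target of Bmp that encodes a helix-loop-helix inhibitor, flanked 3 loci without a 512-cell interval and 4 of all 3 lists, the strongest of the 3 with 308 and 64 reads (chromosome 11, 19126841 to 19127568). bambia, a pseudoreceptor gene, flanked 3, bmpr1aa, a type I receptor gene, 2 and foxi1, an epidermal and otic forkhead gene, 2. The extracellular Bmp antagonist genes chrd, nog1 and fsta flanked 1 each. Nodal and mesendoderm genes counted 18 of 48 (37.5%, 24.0 to 52.6), with 16 beside a locus of all 3 lists. tgif1, a homeobox corepressor of Smad signalling, flanked 6, led by 257 and 75 reads (chromosome 24, 9090116 to 9090717), 0.439 kb from a 512-cell interval. tbxta, the zebrafish Brachyury gene of the notochord, flanked 5, led by 277 and 111 reads (chromosome 19, 30991306 to 30991885). The Smad corepressor genes skia and skilb flanked 2 each.

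Notch and proneural genes counted 18 of 50 (36.0%, 22.9 to 50.8) and had 6 genes beside a locus of all 3 lists. notch3, a receptor gene, flanked 5 loci, with 92 to 148 Sox2 and 49 to 99 Pou5f1-Flag reads. her1 and her7, neighbouring genes of the segmentation clock, shared 3, led by 196 and 87 reads (chromosome 5, 71709912 to 71710465), and the Delta ligand gene dlc flanked 3. In the list of retinoic acid and Hox genes, 14 of 51 (27.5%, 15.9 to 41.7) flanked a locus without a 512-cell interval and 3 (5.88%) a locus of all 3 lists. cyp26a1, which encodes the enzyme that breaks down retinoic acid, flanked 4, the strongest with 372 and 76 reads (chromosome 12, 9790515 to 9791096). The retinoic acid receptor gene raraa had 376 and 216 reads (chromosome 12, 12158475 to 12159459), the seventh highest Pou5f1-Flag count of the 1274.

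The remaining lists framed these shares. Adhesion and guidance genes reached 29 of 66 (43.9%, 31.7 to 56.7), a share like that of the patterning lists, with ephb4a, an Eph receptor gene (372 and 116 reads, chromosome 5, 70797875 to 70798440), robo3, a guidance receptor gene (273 and 35 reads, chromosome 10, 32442752 to 32443363), and efna1b, an ephrin gene (218 and 99 reads, chromosome 16, 25514500 to 25515052). Chromatin regulators reached 11 of 49 (22.4%, 11.8 to 36.6), among them the DNA methyltransferase genes dnmt1 (330 and 112 reads, chromosome 3, 55508256 to 55508930) and dnmt3ba, each with 3 loci, all over 50 kb from a 512-cell interval. Ribosome and proteasome genes reached 11 of 80 (13.8%, 7.07 to 23.3), differentiated organ genes 9 of 43 (20.9%, 10.0 to 36.0) and germ plasm and oocyte genes 2 of 19 (10.5%, 1.30 to 33.1), piwil1 and zar1l. The intervals of the 3 comparison lists all included 17.7%. Those of the retinoic acid and Hox and chromatin lists did too.

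Some loci far from any 512-cell interval also lay beside patterning genes. Of the 560 loci over 50 kb away, 88 lay beside a patterning gene (15.7%, 12.8 to 19.0), against 190 of the 713 nearer ones (26.6%, 23.4 to 30.1). Loci of Sox2 alone showed the same order, 14.1% (12.6 to 15.7) over 50 kb away and 21.0% (19.2 to 22.8) nearer, and the counting intervals of the far loci of both factors and of Sox2 alone overlapped. For late blastula Pou5f1-Flag alone the shares were 9.59% and 13.5%. Those with many Sox2 reads included the loci at tcf7l1b, etv5a, fzd7a and tcf7l2, all given above, and at irx5a (394 and 77 reads, chromosome 7, 37306091 to 37306636). Others were at tle3b (296 and 48 reads, chromosome 7, 34930588 to 34931214), whose nearest 512-cell interval lay 195 kb away, and tfap2c, an ectodermal factor gene (284 and 99 reads, chromosome 6, 56277189 to 56277771), at 144 kb.

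The loci were grouped by distance, and how an even spread would group them was not analysed here. With loci at most 20 kb apart joined, 897 stood alone, 240 formed 120 pairs, 84 formed 28 runs of 3, and 11 runs held 4 or more. The longest lay at her15.2, a Hairy-related gene, and slmapa on chromosome 11, with 6 loci over 38.0 kb and 100 to 334 Sox2 reads. The 5 loci of notch3 spanned 19.1 kb and the 4 of zic2a 22.8 kb. The 4 loci of the run at sox19b and eif4a1a, on chromosome 7 from 27602557 to 27630316, had 193, 81, 94 and 205 Sox2 reads and 28, 35, 31 and 82 Pou5f1-Flag reads. No 512-cell interval lay within 71.7 kb of that run. Of the 11 runs, 5 enclosed a 512-cell interval between their loci, those of mycb, her15.2, notch3, zic2a and gbx2.

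The runs with the most loci, 7 each, had nearly the same layout. One lay at fam49ba and mycb, a Myc family gene, on chromosome 2 from 31825849 to 31852110. The other was at NM_001017713 and arhgap4a on chromosome 23 from 25375021 to 25387796. Measured from the centre of the first Sox2 interval, the Sox2 centres of the next loci lay at 1503.5, 2008, 3879.5, 11127.5 and 12348.5 bp at mycb and at 1502, 1985.5, 3777, 11114.5 and 12346.5 bp at arhgap4a. Sox2 reads at these 6 positions were 184, 156, 148, 145, 222 and 242 at mycb and 205, 149, 190, 175, 212 and 217 at arhgap4a. Late blastula Pou5f1-Flag reads were 62, 106, 97, 112, 37 and 73 at mycb and 59, 85, 83, 93, 37 and 81 at arhgap4a. A pair of weaker Sox2 intervals also stood at matching distances, 8104.5 and 8094.5 bp, with 51 reads at mycb and, with a Pou5f1-Flag interval of 56 reads, 40 at arhgap4a. Another pair of Sox2 intervals, outside the runs, stood at -5464 bp at mycb and -5424.5 bp at arhgap4a, with 59 and 37 reads. Whether the 2 stretches hold copies of the same sequence was not analysed here, so these loci may share reads and are uncertain as separate positions. The mycb run has a seventh locus of 310 Sox2 and 108 Pou5f1-Flag reads at its far end, 1.16 kb from a 512-cell interval. In the arhgap4a run the locus of 40 Sox2 reads completes the 7, and no 512-cell interval lay within 44.5 kb of that run.

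**Figure D5:**
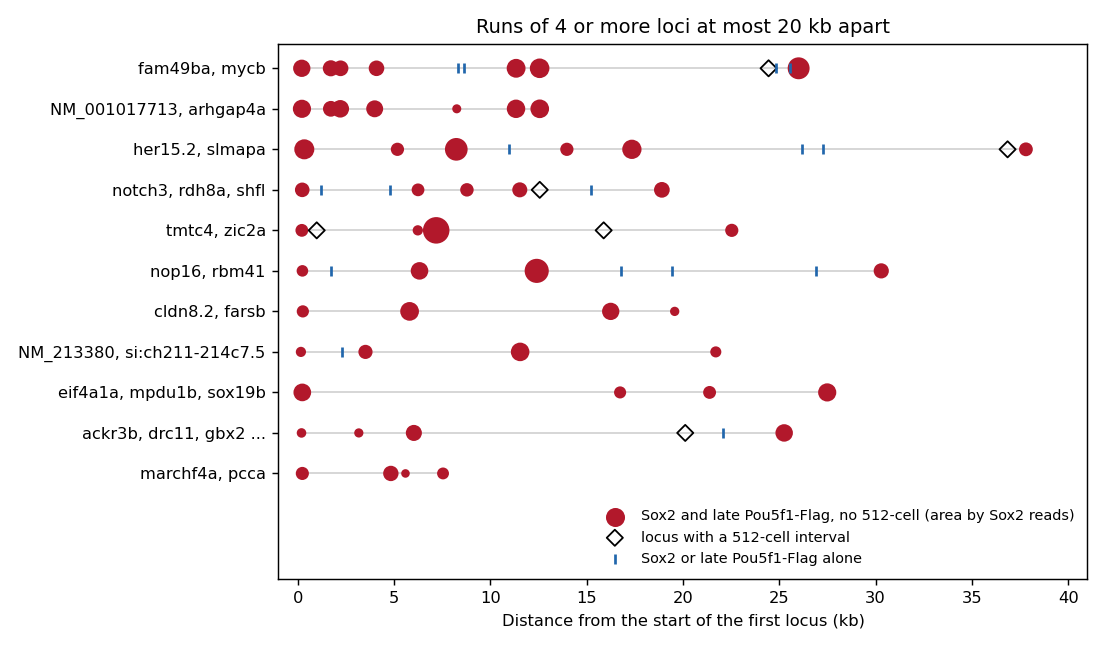
Runs of 4 or more loci without a 512-cell interval that lie at most 20 kb apart, by distance in kb from the start of the first locus; circle area follows Sox2 reads, open diamonds are loci with a 512-cell interval, and ticks are loci of Sox2 or late blastula Pou5f1-Flag alone. The upper 2 rows, at mycb and arhgap4a, have circles at nearly the same distances up to 12348.5 bp.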

How the data were processed

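Each sample has 1 deposited peak list. Per the file headers, the authors gave each interval its counts of reads in total and by strand, a percent false discovery rate, the p-value of a Wilcoxon filter, a normalized difference (strand imbalance as a fraction) and a gene on each side. CASAVA is named without a version in the submitters' processing notes. The aligner was not given in the sources used here, nor were the peak caller and its thresholds. Identifiers of the 3 late blastula lists name Zv9, assumed for the 512-cell list too. RefSeq accessions were matched to symbols through a table of assembly GRCz12tu, used for names only (89.2% to 95.4% matched per list).

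Loci were built and counted with Python 3.11.15, pandas 2.3.3, NumPy 2.4.6 and SciPy 1.17.1, checked on simulated intervals. A locus takes the values of the interval with the most reads in each list. Intervals for shares are Clopper-Pearson. The members and the 14 gene lists were chosen with earlier results of these data known. Named loci were the 12 best by worse rank, the extremes of reads and ratio, those nearest the thresholds, and 4 genes per list by number of loci and Sox2 reads; genes given only by number of loci, runs with matching layout and the mitochondrial locus were chosen after their values were seen. One locus that the rule names is not reported here. Of the alternatives, 7 were planned and 2 added after seeing the data.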

Additional observations from a re-analysis of the deposited data

How the results depend on the processing

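The number of loci (1274), their share of loci with both late blastula factors (77.31%), the ratio of their median Sox2 reads to that of loci in all 3 lists (0.6018) and the share of patterning genes beside them (38.86%) were recomputed. With the first pass of the late blastula Pou5f1-Flag list alone they were 317, 67.59%, 0.7158 and 13.74%, and 316 of the 317 loci were among the 1274; that list has fewer intervals. With only intervals at or above the median reads of their list they were 686, 71.31%, 0.6516 and 28.44%. Holding every list to a false discovery rate of at most 1% gave 988, 84.59%, 0.5277 and 33.89%, and 854 of the 988 loci were among the 1274. Holding only the 2 late blastula lists to it, added after seeing the data, gave 855, 73.2%, 0.6387 and 31.75%. Of these 855 loci, 854 were among the 1274. The share without a 512-cell interval thus moved up or down with which lists were cut. Leaving out loci within 1 kb of a 512-cell interval gave 74.76% and 0.6471. The shares of all genes under these settings, in the order given, were 5.66%, 10.6%, 14.5% and 12.8%, and the patterning shares were 2.34 to 2.69 times these. Among genes beside a late blastula ChIP interval only, also added, the patterning share was 45.43%, against 24.8% of all such genes. In all, 16 values stayed within the interval of the reported value, or within 1.5 times for a count, and none changed direction. Among them were those without the Input filter, with a larger overlap and with the second pass alone. The counts of 988 and 855 were among them only through the 1.5 times allowed. No paired analysis was possible because each group held 1 sample and no test was made. Depth is unknown, no replicate shows how far lists differ by chance, and absence from a list is not absence of binding.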
